A study of Chlamydomonas reinhardtii with 16 samples.

Results

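The 100 genes described here are those of *Chlamydomonas reinhardtii* whose transcripts stood out most at ZT 12 (zeitgeber time, hours since the last lights on) against every other time of day. They were selected on the expression values themselves. FPKM (fragment counts normalized for transcript length and library depth) of the 16 libraries were scaled to a common 75th percentile, and replicates were averaged. Of the 17114 gene models 5011 averaged 5 FPKM or more over the 8 time points, and among these the 100 with the largest ratio of the ZT 12 mean plus 1 to the highest other mean plus 1 were taken. All 16 libraries went into this ratio, so the excess at ZT 12 is the criterion of selection and was not tested.

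*C. reinhardtii* is a single-celled green alga with a chloroplast and flagella. The libraries came from whole cells of strain dw15.1, grown without aeration in an acetate medium, moved out of constant light into 12 hr light and 12 hr dark, and sampled after 48 hr of these cycles. Separate cultures set up from a starter culture, replicates A and B, were taken every 3 hr at 8 time points, ZT 0 through ZT 21, which gives 2 libraries per time point. Cultures at the transitions were taken right before the change, so those at ZT 0 were still in the dark and those at ZT 12 still in the light, at the last sampled moment of the day. All libraries share strain, medium and temperature, and no mutant or constant-condition culture was used, so an effect of light and one of an internal clock cannot be told apart. In bulk samples, a change in the share of cells that use a gene and a change of RNA per cell cannot be told apart either.

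In light-dark cycles this alga grows by day and divides by multiple fission around the start of the night: DNA is copied and the nucleus divides several times in quick succession before the daughter cells hatch. Genes of DNA copying, chromosomes and spindles are known to be used in this short window. Acetate allows some growth in the dark as well. The day-to-night change also ends photosynthesis and alters the redox state of the chloroplast.

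**Figure D1:**
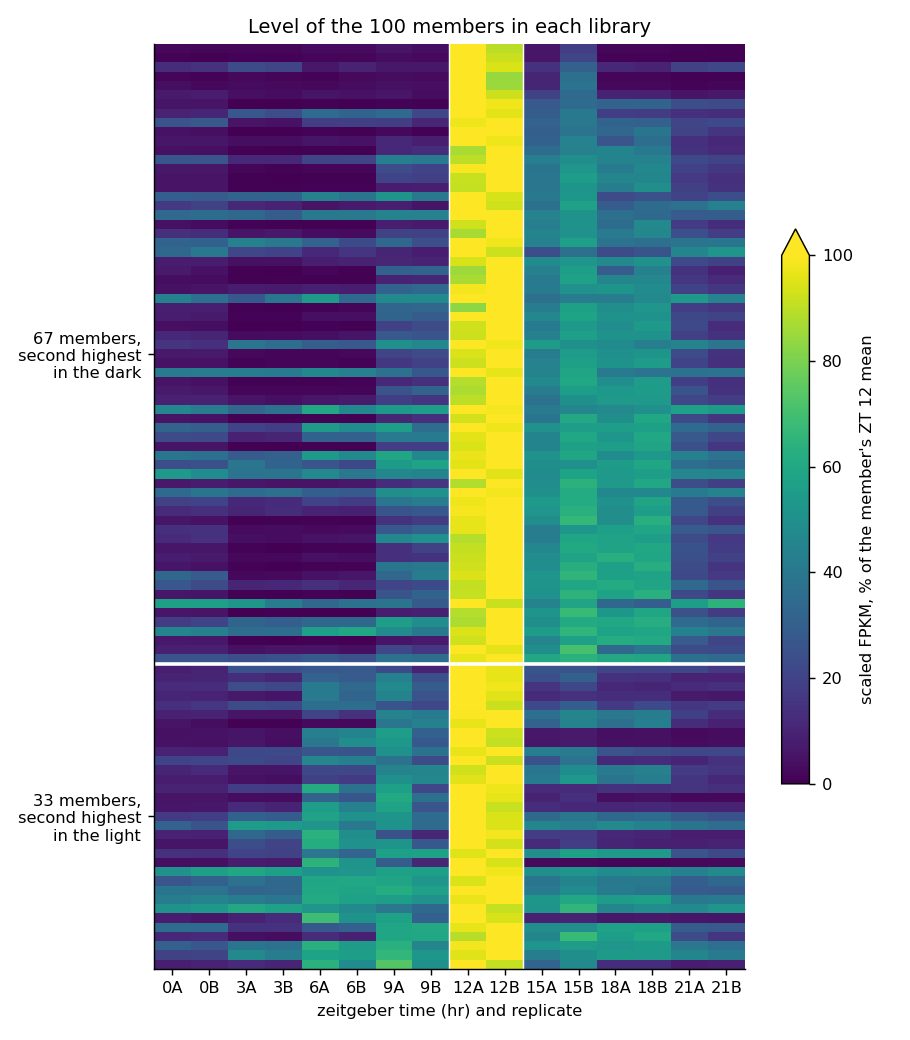
Scaled FPKM of the 100 members (rows) in each of the 16 libraries (columns, ordered by zeitgeber time in hr and replicate), as a percent of the member's own ZT 12 mean, with values over 100 shown in the same color as 100. The upper 67 members had their second highest mean in the dark and the lower 33 in the light, each block running down from the largest ratio. The ZT 12 columns are bright by construction, and the rows differ in what surrounds them.

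The libraries held between 5.87e6 fragments (ZT 12, replicate B, the shallowest) and 2.19e7 fragments (ZT 18, replicate A), as recovered from the confidence limits in the files. The lowest correlation of log2 values within a time point was 0.995 over all gene models. The members did show differences between replicates of one time point. At ZT 15, 92 of the 100 members were higher in replicate B than in replicate A, with a median ratio of 1.26, against 45.4% of all 5011 genes. At ZT 9, 28 of the 33 members with a daytime second maximum were higher in replicate A than in replicate B, with a median ratio of 1.46, against 50.4% of all 5011 genes. The paper states that replicates of a time point were sequenced in separate lanes, so culture, library and lane cannot be told apart here. What set these replicates apart was not tested.

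At ZT 12 the members reached means between 10.7 and 573 FPKM, with a median of 32.6 FPKM. The ZT 12 mean held a median of 37.9% of the sum of a member's 8 means, against 11.6% over all 5011 genes. Both ZT 12 libraries exceeded the other 14 in 100 of 100 members, beside 562 of the 5011 genes, or 11.2%; the rule fixes this count. A member rested on 196 to 17779 fragments in a ZT 12 library. None was at 0 in any library, and 84 had over 10 fragments in all 16, while 6 had 3 or fewer fragments in at least 1 library.

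The name of a burst at dusk alone describes few of these genes. In 60 of the 100 members the second highest mean was at least 50% of the ZT 12 mean, and in 5 it was under 25%. Only 8 members, which are also the only 8 of the 5011 genes, had over 50% of their 8-point sum at ZT 12. The second highest mean fell at ZT 3 in 3 members, at ZT 6 in 16, at ZT 9 in 14, at ZT 15 in 36, at ZT 18 in 27 and at ZT 21 in 4. For the 5011 genes the highest mean apart from ZT 12 was counted. It fell at ZT 0 in 478, at ZT 3 in 890, at ZT 6 in 1257 and at ZT 9 in 1044. In the dark it fell at ZT 15 in 439, at ZT 18 in 294 and at ZT 21 in 609. The set therefore holds 67 members with a dark shoulder and 33 with a light shoulder, a division read from the same values and used below only to order the description.

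The highest ratios belonged to genes with a C2 domain, a fold that in many eukaryotic proteins binds membrane lipids, often in a calcium-dependent way. Of the 14 genes of this domain family among the 5011, 5 were members, beside the 2% that members make up of all 5011. Of these 5 members, 4 lie close together on scaffold 18 of genome version 4.3. Cre18.g748450 (scaffold 18, bases 809951 to 811877) measured 1.48 and 1.22 FPKM in replicates A and B at ZT 0, 1.10 and 1.15 at ZT 3, 2.25 and 2.07 at ZT 6, 4.21 and 2.59 at ZT 9, 79.3 and 64.5 at ZT 12, 4.45 and 13.0 at ZT 15, 1.25 and 1.05 at ZT 18, and 0.701 and 0.453 at ZT 21. Its ratio of 7.5 was the largest of the set. The ZT 12 mean was 21.1 times the ZT 9 mean and 8.25 times the ZT 15 mean, so the transcript was both gained and mostly lost within a sampling step on either side.

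Cre18.g748500 (812037 to 813833), the next gene model, lies 160 bases further on. It measured 0.770 and 0.177 FPKM at ZT 0, 0.819 and 0.746 at ZT 3, 1.04 and 1.19 at ZT 6, 2.56 and 1.93 at ZT 9, 83.8 and 71.6 at ZT 12, 4.65 and 16.3 at ZT 15, 0.812 and 0.695 at ZT 18, and 0.399 and 0.362 at ZT 21. Its ratio was 6.85, and its ZT 12 mean was 34.6 times that at ZT 9. The lowest of these values, at ZT 0 in replicate B, rests on 6 fragments.

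After 42138 bases and 5 gene models comes a second pair of the same kind. Cre18.g748750 (855971 to 857767) measured 47.9 and 35 FPKM at ZT 12, beside 1.37 and 1.14 at ZT 9 and 4.24 and 15.2 at ZT 15. Cre18.g748800 (857967 to 859767), 200 bases on, measured 39.4 and 29.2 FPKM at ZT 12, beside 1.56 and 1.40 at ZT 9 and 3.56 and 13.0 at ZT 15. Their ratios were 3.96 and 3.80. Over all 4 genes, the ZT 12 libraries ranged from 29.2 to 83.8 FPKM, the ZT 15 libraries from 3.56 to 16.3, and the 12 remaining libraries from 0.177 to 4.21, so that ZT 12 stood clear of all else and ZT 15 overlapped the rest only at its low end. At ZT 15 all 4 genes were higher in replicate B than in replicate A, by up to 3.66 times, and the size of the ratio depends on which culture is read: for Cre18.g748450 it was 14.7 in replicate A and 4.69 in replicate B.

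The genes between the pairs did not share the pattern. The highest ZT 12 mean among the 5 models was 2.84 FPKM. One of them, Cre18.g748700 (852472 to 855277), carries a C2 domain too and ends within 1 kilobase of the second pair. It measured 0.723 and 0.556 FPKM at ZT 12, beside 4.48 and 4.72 at ZT 0, 3.07 and 4.80 at ZT 6, and 2.63 and 3.43 at ZT 9. Cre18.g748500 and Cre18.g748750 span the same number of bases, 1796. The 4 burst genes may be close copies, and as the authors' mapping kept 1 hit per read, how their reads were divided among copies cannot be read from the files; their single levels are uncertain for that reason. Of the 5011 genes 79.7% matched a locus of the RefSeq v5.5 annotation by number and so did 82 of the 100 members, but these 4 did not.

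The fifth C2 member, Cre01.g015500 on chromosome 1 (2462372 to 2464521), had a different day. It measured 13.5 and 14 FPKM at ZT 0, 25.7 and 23.7 at ZT 3, 45.2 and 37.5 at ZT 6, 52.0 and 32.4 at ZT 9, 112 and 107 at ZT 12, 17.1 and 23.6 at ZT 15, 12.2 and 11.3 at ZT 18, and 13.5 and 15.2 at ZT 21. It was already raised through the light period before its maximum, where the scaffold 18 genes stayed low. Outside the set, the C2 gene Cre02.g110350 was also highest at ZT 12, at 33.1 and 36.3 FPKM, beside 26.8 and 30.7 FPKM at ZT 15, with a ratio of 1.20. In total 6 of the 14 peaked at ZT 12.

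**Figure D2:**
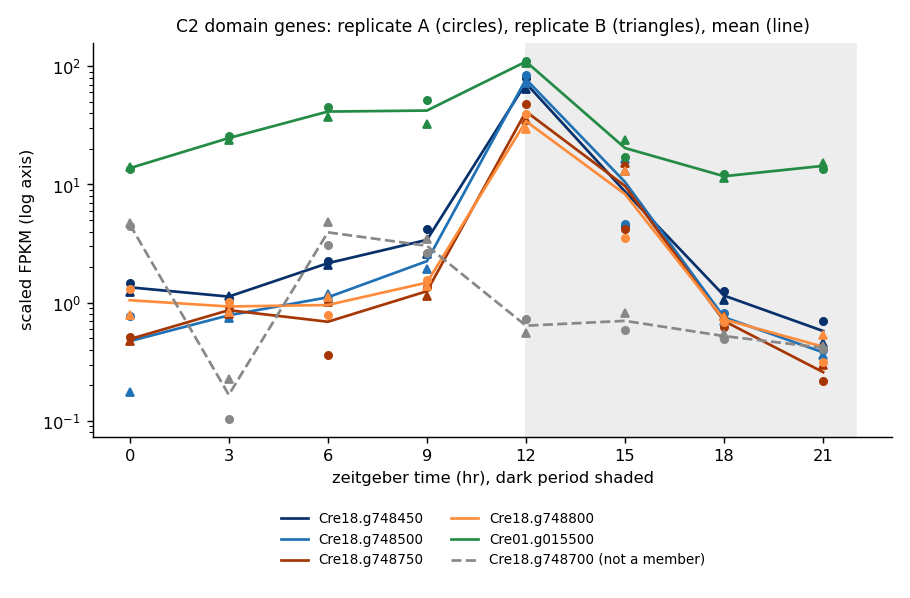
Scaled FPKM on a log axis against zeitgeber time in hr for the 5 C2 domain members and for Cre18.g748700, their neighbor outside the set (dashed gray), with replicate A as circles, replicate B as triangles and the mean as a line; the dark period is shaded. The 4 scaffold 18 members sit at 29.2 to 83.8 FPKM at ZT 12, and at ZT 15 their triangles lie above their circles.

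A pair of further members of the leading group were low at ZT 9 and far below their ZT 12 level again at ZT 15. Cre03.g152250 on chromosome 3 (572898 to 576392; ratio 4.24) measured 72.3 and 64.3 FPKM at ZT 12, beside 4.39 and 4.51 at ZT 9 and 9.87 and 20.8 at ZT 15. It had a smaller rise late at night and in the morning, with 13.2 and 14.4 FPKM at ZT 21 and 15.6 and 14.4 at ZT 3. Cre11.g482650 on chromosome 11 (ratio 3.53) measured 48.9 and 42.1 FPKM at ZT 12, beside 2.83 and 1.5 at ZT 9 and 8.83 and 15.6 at ZT 15. Neither gene carries a domain of the families used here, and neither the files nor the reference give a name for them.

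Another 3 leading members had their lowest levels by day and kept part of their transcript through the night. Cre17.g728750 on chromosome 17 (3988971 to 3993688; ratio 3.05) measured 5.08 and 4.70 FPKM at ZT 0, 0.277 and 0.274 at ZT 3, 0.351 and 0.233 at ZT 6, 0.743 and 0.361 at ZT 9, 89.3 and 85.6 at ZT 12, 24.3 and 30.7 at ZT 15, 27.7 and 28.3 at ZT 18, and 21.1 and 20.1 at ZT 21. Its ZT 12 mean was 317 times its lowest mean, and it held a level stretch from ZT 15 to ZT 18. Cre06.g302950 (ratio 2.64) followed a like course, with 29.0 and 28.8 FPKM at ZT 12, 8.80 and 11 at ZT 15, 9.49 and 11.2 at ZT 18, and 0.106 and 0.00802 at ZT 3, the last of these from 1 fragment. Cre02.g080150 (ratio 2.59) measured 67.7 and 64.1 FPKM at ZT 12, beside 7.40 and 5.43 at ZT 9 and 20.4 and 29.2 at ZT 15.

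The rest of the 20 largest ratios differed in their levels at other times. Cre07.g336900 (ratio 2.84), the most abundant of the 20, measured 254 and 235 FPKM at ZT 12, beside 83.3 and 51.9 at ZT 9 and 71.9 and 99.1 at ZT 15. Cre02.g076550 (3.18) was at 17.8 and 16.6 FPKM at ZT 12 and at no more than 4.78 FPKM in any other library. Cre06.g286850 (2.71) measured 59.8 and 63.0 FPKM at ZT 12, beside 19.4 and 24.6 at ZT 15 and 3.16 and 2.97 at ZT 3. Cre09.g413150 (2.81), Cre06.g281650 (2.55), Cre01.g065367 (2.52), Cre16.g657550 (2.27) and Cre03.g181450 (2.25) had ZT 12 means of 51.2, 26.7, 16.2, 40.7 and 20 FPKM. All 5 had their second highest mean in the light, at ZT 6 or ZT 9. In Cre16.g657550 and Cre03.g181450 the lead of ZT 9 over ZT 15 was slight. At ZT 15 against ZT 9 their log2 changes were -0.07 and -0.13 and did not pass the test given below. With ZT 12 left out, both averaged higher on the log2 scale over the dark time points than over the light ones. Of the 5 genes Cre03.g181450 had the widest range over the day, at 19.3 and 20.6 FPKM at ZT 12 and 0.104 and 0.130 FPKM at ZT 3.

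The last of the 20 are a pair of neighbors on chromosome 13, 48 bases apart. Cre13.g593850 (4492389 to 4495631) measured 34.5 and 36.2 FPKM at ZT 6, 44.8 and 25.0 at ZT 9, 86.4 and 74.0 at ZT 12, and 5.18 and 5.89 at ZT 15. Cre13.g593869 (4495679 to 4498241) measured 42.2 and 51.8 FPKM at ZT 6, 56.3 and 29.0 at ZT 9, 116 and 96.3 at ZT 12, and 6.50 and 7.54 at ZT 15. Both carried a ratio of 2.23 and both climbed from midday on and were low within 3 hr of dark. At a distance of 48 bases the files do not show whether 1 transcript covers both models.

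Over all 100 members the median level was 9.47% of the ZT 12 mean at ZT 0, 6.84% at ZT 3, 18.3% at ZT 6, 32.6% at ZT 9, 47.6% at ZT 15, 45.1% at ZT 18 and 20% at ZT 21. The typical member was thus lowest in the morning, climbed through the afternoon and held a like level at ZT 15 and ZT 18. Over all 5011 genes the medians ran from 95.4% at ZT 15 to 111% at ZT 6. There too ZT 18, at 99.1%, was close to ZT 15. The ZT 12 mean was a median of 18.2 times the lowest mean, against 1.61 times the lowest over all 5011 genes. The lowest mean fell at ZT 0 in 16 members, at ZT 3 in 46, at ZT 6 in 14, at ZT 9 in 4, at ZT 18 in 4 and at ZT 21 in 16. Of the 5011 genes, 737 were lowest at ZT 0, 655 at ZT 3, 506 at ZT 6 and 751 at ZT 9. A further 859 were lowest at ZT 12, 551 at ZT 15, 385 at ZT 18 and 567 at ZT 21. In 28 members both ZT 3 and ZT 6 were under 1 FPKM, and 12 members reached 100 FPKM or more at ZT 12.

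The 67 members with a dark shoulder were lowest in the morning and held a like level at ZT 15 and ZT 18. Their median level was 8.38% of the ZT 12 mean at ZT 0, 3.72% at ZT 3, 5.24% at ZT 6, 21.8% at ZT 9, 49.9% at ZT 15, 50.0% at ZT 18 and 21.2% at ZT 21. The lowest mean fell at ZT 3 or ZT 6 in 53 of them, beside 655 of the 5011 genes at ZT 3 and 506 at ZT 6. In 52 of them the ZT 15 and ZT 18 means differed by at most 20% of the higher one. How many of the 5011 genes met this 20% limit was not counted. By a different measure, most of the 5011 genes showed no called change over this step. At ZT 18 against ZT 15, the limma test given below called 14.2% of them higher and 10.9% lower. A gene that was not called need not be level. The 33 members with a light shoulder had a median of 10.2% at ZT 0, 19.6% at ZT 3, 44.6% at ZT 6, 43.4% at ZT 9, 38.1% at ZT 15, 24.6% at ZT 18 and 15.9% at ZT 21, and 25 of them were lowest at ZT 18, ZT 21 or ZT 0.

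Known domains give some of the dark-shoulder members a role. In all, 18 of the 100 members belong to at least 1 of the 137 domain families read from the study's gene trees, beside 18.1% of the 5011 genes, so most members have no such label. Cre08.g370400, the only cyclin among them (cyclins are the regulatory partners of the kinases that drive the cell cycle), measured 14 and 13.4 FPKM at ZT 0, 8.04 and 7.51 at ZT 3, 14.7 and 17.0 at ZT 6, 18.8 and 17.2 at ZT 9, 164 and 185 at ZT 12, 84.0 and 91.2 at ZT 15, 83.0 and 88.1 at ZT 18, and 38.7 and 34.3 at ZT 21. It was flat from ZT 6 to ZT 9 and several times higher at ZT 12. It was 1 of 10 cyclin-domain genes among the 5011, of which 2 peaked at ZT 12, beside 15.8% of all 5011 genes.

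Cre12.g491050 on chromosome 12 (956601 to 960026) belongs to the small-subunit family of ribonucleotide reductase, the enzyme that makes deoxyribonucleotides for DNA. It measured 6.03 and 5.87 FPKM at ZT 0, 0.641 and 0.353 at ZT 3, 0.945 and 0.522 at ZT 6, 26.5 and 32.9 at ZT 9, 93.5 and 111 at ZT 12, 51.8 and 66.4 at ZT 15, 59.3 and 65.1 at ZT 18, and 22.5 and 16.3 at ZT 21. Unlike the cyclin, it was already up at ZT 9. The histone-fold gene Cre13.g567700 was the most abundant member, at 527 and 618 FPKM at ZT 12, beside 281 and 329 at ZT 15, 78.8 and 82.8 at ZT 9 and 12.6 and 13.4 at ZT 3. Histones package DNA, and their genes come in many near-identical copies (129 models of this family in the files, 4 of them among the 5011), so reads may have been split between copies and the level of 1 copy is uncertain.

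The kinesin-domain gene Cre03.g164050 (kinesins are motors that walk along microtubules) measured 25.3 and 26.7 FPKM at ZT 12, beside 10.2 and 11 at ZT 9 and 13.9 and 16 at ZT 15. It was the only member among 13 kinesin-family genes of the 5011. Of the 13, 6 peaked at ZT 12, beside 15.8% of all 5011 genes. Among protein kinases, Cre07.g355250 measured 22.8 and 29.5 FPKM at ZT 12, beside 2.62 and 2.84 at ZT 9 and 10.7 and 15.0 at ZT 15, and it stayed at 0.131 to 0.165 FPKM at ZT 3 and ZT 6. Cre07.g351150, a kinase with much less contrast, measured 12.5 and 11.6 FPKM at ZT 12 and between 3.34 and 7.07 in the other libraries. Another kinase, Cre01.g036700, had its shoulder in the light, at 19.5 and 14.5 FPKM at ZT 9, and measured 37.6 and 40.1 at ZT 12. These 3 came from 141 genes of the kinase families among the 5011, near the 2% that members make up of all 5011.

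Chaperones were present as 2 kinds. The DnaJ-domain gene Cre09.g389550 (DnaJ proteins are the partners of Hsp70) measured 20 and 25.6 FPKM at ZT 12, beside 5.80 and 7.28 at ZT 9 and 9.56 and 12.8 at ZT 15, with 0.308 to 0.403 FPKM at ZT 3 and ZT 6. Both Hsp70-family members lie on chromosome 2 with 1 gene model between them and had a shallow profile. Cre02.g080700 (991400 to 995659) measured 102 and 99.5 FPKM at ZT 12 and 33.1 to 60.0 in the other libraries, and Cre02.g080600 (977228 to 982670) measured 23.4 and 23.4 at ZT 12 and 6.49 to 12.8 elsewhere. They were 2 of 8 genes of the family among the 5011. In 3 further members the other libraries varied less than in the DnaJ gene: the thioredoxin-fold gene Cre10.g446100, of a redox protein family, was at 24.3 and 23.4 FPKM at ZT 12 and 10.4 to 14.2 elsewhere, the AAA-ATPase Cre10.g461250 at 17.0 and 18.0 and 5.08 to 10.4 elsewhere, and the cytochrome b5-fold gene Cre16.g659250, of a family of heme proteins, at 43.4 and 37.0 and 11.4 to 26.1 elsewhere.

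**Figure D3:**
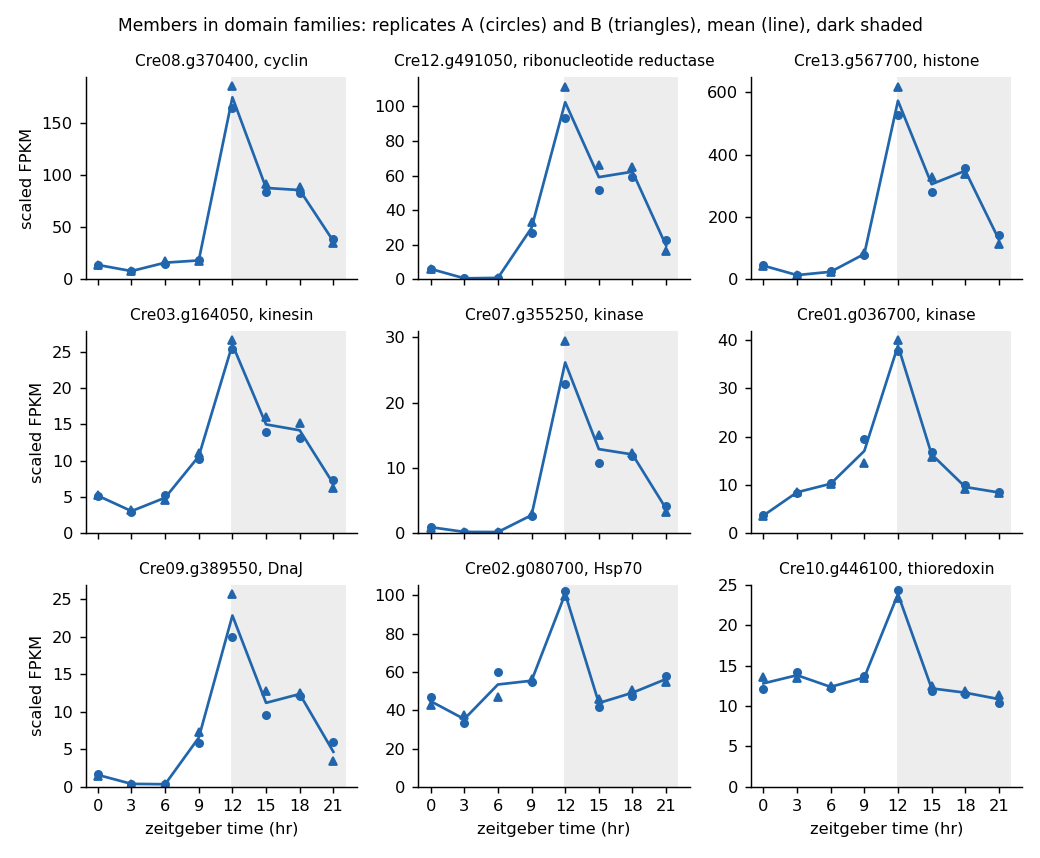
Scaled FPKM (linear axis from 0) against zeitgeber time in hr for 9 members with a known domain, with replicate A as circles, replicate B as triangles, the mean as a line and the dark period shaded. The cyclin gene leaves its daytime level between ZT 9 and ZT 12, the ribonucleotide reductase gene is already up at ZT 9, and the Hsp70 and thioredoxin genes vary little at other times.

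Other families listed for comparison (34 in all, among them motors, tubulins, proteases, ubiquitin and ring-finger proteins, transporters and transcription factor folds) had a member in 9 cases. Families without a member included the RNA-binding motif with 62 genes among the 5011, the mitochondrial carriers with 21, the ABC transporters with 16, the proteasome subunits with 15 and the tubulins with 9. With so few members per family, an absence says little. The 28 expression clusters that the study listed with a peak time hold 13 of the members: 4 of the 9 genes of one cluster and 4 of the 13 genes of another, both with their peak at ZT 12, 3 of the 9 genes of a cluster with its peak at ZT 15, and 1 each in 2 more. These clusters were built on the same libraries and are not independent of the members. The 3 in the ZT 15 cluster were Cre12.g491050, Cre16.g691550 and Cre17.g720350.

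The behavior of the members away from ZT 12 was tested in 5 comparisons that leave ZT 12 out, with limma on log2(FPKM + 1) over the 12153 genes that averaged 1 FPKM or more and Benjamini-Hochberg adjustment at 0.05. All 100 members were among them. The rule used all of these levels and held each below the ZT 12 level, but it did not fix their order. Members were chosen to be highest at ZT 12, while the genes set beside them below could be highest at any time. How far a difference between members and those genes follows from the choice of members was not tested. Comparisons that use the same time point share its libraries and are not independent of each other.

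The first question was whether the climb was under way in the afternoon. At ZT 9 against ZT 6, 52 members were higher and 11 lower, beside 34.6% and 28.8% of all genes tested. Among the 5011 genes, 29% were higher and 41% lower. The median log2 change was 0.61 over the members and 0.04 over all genes tested. The largest were in Cre02.g130150, at 99.3 and 93.8 FPKM at ZT 9 and 3.23 and 2.64 at ZT 6 (log2 change 4.64 ± 0.17 SE, adjusted p = 2.5e-11), and in the ribonucleotide reductase gene Cre12.g491050 (4.15 ± 0.17, adjusted p = 4.9e-11). Cre02.g130150 went on to 457 and 539 FPKM at ZT 12. The leading scaffold 18 genes did not pass this test, with log2 changes of 0.35 to 0.61, nor did the cyclin Cre08.g370400 (0.18 ± 0.09).

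The strongest declines over the same interval were in Cre56.g791150, at 11.7 and 5.04 FPKM at ZT 9 and 30.1 and 23.4 at ZT 6 (log2 change -1.65 ± 0.22, adjusted p = 1.1e-05), and in Cre12.g504900, at 15.8 and 5.72 FPKM at ZT 9 and 35 and 28.0 at ZT 6 (-1.61 ± 0.27, adjusted p = 8.9e-05). Both stood at 46.2 FPKM or more in each ZT 12 library, so that ZT 9 was a dip between separate maxima. In all, 27 members had a lower mean at ZT 9 than at ZT 6. The ZT 9 cultures weigh on the 11 members called lower, since without replicate A at ZT 9 the test called 22 lower and without replicate B 3. On FPKM as deposited 68 members were higher and 2 lower, and with scaling by the median 51 and 18.

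The second question was how the level 3 hr into the dark compared with that 3 hr before the dark. At ZT 15 against ZT 9, 55 members were higher and 16 lower, beside 33.1% and 44.2% of all genes tested. Among the 5011 genes, 32.3% were higher and 48.9% lower. The median log2 change was 0.51 over the members and -0.11 over all genes tested. Cre17.g728750 led, at 24.3 and 30.7 FPKM at ZT 15 and 0.743 and 0.361 at ZT 9 (log2 change 4.20 ± 0.11, adjusted p = 1.7e-13), followed by Cre06.g302950 (2.95 ± 0.14, adjusted p = 6.3e-11). The cyclin Cre08.g370400 rose by 2.22 ± 0.09 (adjusted p = 9.8e-12), the histone-fold gene Cre13.g567700 by 1.90 ± 0.11 (8.4e-10) and the kinase Cre07.g355250 by 1.88 ± 0.14 (7.3e-09). The 4 scaffold 18 genes were called higher too, by 1.01 to 2.04 on the log2 scale, but in a size that rests on replicate B at ZT 15. Without that library the log2 changes were 0.33 to 1.22, and Cre18.g748450 lost its call (0.33, adjusted p = 0.11). Without replicate A at ZT 15 they were 1.69 to 2.85. The call of Cre18.g748450 was also lost without replicate B at ZT 9 (0.74). The neighbors Cre13.g593850 and Cre13.g593869 had the strongest falls, with log2 changes of -2.40 ± 0.19 (2.2e-08) and -2.37 ± 0.23 (1.9e-07).

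Between ZT 15 and ZT 18, both in the dark, 83 of the members did not pass the test. At ZT 18 against ZT 15, none was higher by limma's adjusted p and 17 were lower, beside 9.25% and 8.89% of all genes tested. Among the 5011 genes, 14.2% were higher and 10.9% lower. By limma's unadjusted p under 0.05, 3 members were higher. The median log2 change was -0.04 over the members and 0.00 over all genes tested. All 5 C2 members were among the 17, and the strongest were Cre18.g748500, at 0.812 and 0.695 FPKM at ZT 18 and 4.65 and 16.3 at ZT 15 (log2 change -2.50 ± 0.33, adjusted p = 0.00011), and Cre18.g748750 (-2.44 ± 0.34, adjusted p = 0.00016). These falls depend in size on the ZT 15 culture, and for Cre18.g748500 the log2 change was -3.31 without replicate A at ZT 15 and -1.69 without replicate B. The fifth C2 member, Cre01.g015500 (-0.73), lost its call without replicate B at ZT 15 (-0.51) and without replicate B at ZT 18 (-0.68). The cyclin, the ribonucleotide reductase, histone-fold, kinesin and DnaJ genes did not pass, with log2 changes between -0.08 and 0.19.

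The morning comparison asked how levels 3 hr into the light stood against those at the end of the night. At ZT 3 against ZT 0, 22 members were higher and 55 lower, beside 32.6% and 38.8% of all genes tested. Among the 5011 genes, 39.5% were higher and 36.1% lower. The median log2 change was -0.42 over the members and -0.06 over all genes tested. Cre02.g130150 dropped most, at 2.28 and 1.26 FPKM at ZT 3 and 25.7 and 25.4 at ZT 0 (log2 change -3.29 ± 0.17, adjusted p = 2.5e-10), and Cre17.g720350, at 0.743 and 0.321 FPKM at ZT 3 and 7.38 and 6.84 at ZT 0, changed by -2.42 ± 0.16 (4.5e-09). The ribonucleotide reductase gene Cre12.g491050 (-2.22 ± 0.17, 1.5e-08), the histone-fold gene Cre13.g567700 (-1.66 ± 0.11, 6.4e-09) and the cyclin Cre08.g370400 (-0.74 ± 0.09, 3.5e-06) were lower as well. The largest increases were in Cre56.g791150, at 15.8 and 13.9 FPKM at ZT 3 and 4.42 and 4.34 at ZT 0 (1.56 ± 0.22, 1.6e-05), and in Cre03.g193250 (1.38 ± 0.20, 1.6e-05). On FPKM as deposited 11 members were higher and 66 lower.

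The last comparison set the mean of the dark time points ZT 15, 18, 21 and 0 against the mean of the light time points ZT 3, 6 and 9. Here 59 members were higher in the dark and 26 lower, beside 38.9% and 46.2% of all genes tested, and 15 did not pass. Among the 5011 genes, 33.3% were higher and 54.1% lower. The median log2 change was 0.42 over the members and -0.06 over all genes tested. Cre17.g728750 (3.72 ± 0.06, adjusted p = 2.3e-16) and Cre02.g130150 (3.33 ± 0.09, 3.8e-14) were the most dark-biased. Cre12.g504900, at 35 and 28.0 FPKM at ZT 6 and 1.35 or less in every library from ZT 15 to ZT 21, was the most light-biased (-2.35 ± 0.14, 4.2e-10), ahead of Cre13.g593850 (-1.96 ± 0.10, 7.7e-11). The 4 scaffold 18 genes were among those that did not pass, at -0.09 to 0.29. On FPKM as deposited 73 members were higher in the dark and 17 lower.

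**Figure D4:**
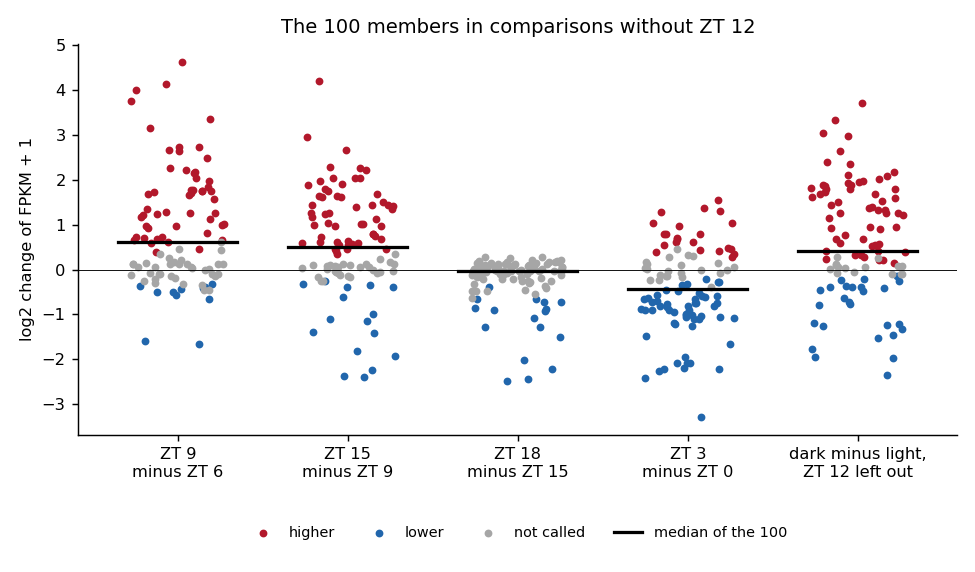
Log2 change of FPKM + 1 of each of the 100 members in the 5 comparisons without ZT 12 (red, called higher; blue, called lower; gray, not called by limma at an adjusted p of 0.05), with the median of the members as a black bar and points spread sideways for display. Medians were 0.61, 0.51, -0.04, -0.42 and 0.42 in the order shown, and ZT 18 against ZT 15 has the narrowest spread with a tail of 17 lower genes.

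The wider families of the named genes were read in the same fit, where over all genes tested 38.9% were higher in the dark and 46.2% lower. Of 33 kinesin-family genes tested 26 were higher in the dark and 3 lower, the member Cre03.g164050 among the higher (0.68 ± 0.05, adjusted p = 7.0e-09). Of 10 histone-family genes tested 6 were higher and 1 lower, of 17 cyclin-domain genes 8 were higher and 5 lower, and of 25 C2 genes 10 were higher and 10 lower. Of 55 DnaJ genes 14 were higher and 34 lower, while the member Cre09.g389550 was higher (1.52 ± 0.10, adjusted p = 6.4e-10). Both genes of the ribonucleotide reductase small-subunit family were tested, and 1 was higher and 1 lower.

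Members occurred on 15 of the 17 numbered chromosomes, which held 94 of them, and on scaffolds, which held 6. Scaffold 18 held 5 of the 6, among its 46 genes of the 5011. Chromosome 2 had the most, 13 of its 520 genes among the 5011, followed by chromosome 12 with 12 of 588. Of the members 14 had another member as the next gene model, in 7 pairs, while 55 of the 4911 other genes (1.12%) stood next to a member. Besides the scaffold 18 and chromosome 13 pairs these were Cre12.g497950 and Cre12.g498000, Cre11.g483300 and Cre11.g483350, Cre01.g023150 and Cre01.g023200, and Cre03.g200000 and Cre03.g200050. The chromosome 11 genes are 100 bases apart and had nearly the same course, with 79.8 and 107 FPKM at ZT 12 beside 29.1 and 29.7 at ZT 9 for Cre11.g483300, and 40.7 and 57.6 FPKM at ZT 12 beside 16 and 16.3 at ZT 9 for Cre11.g483350. The chromosome 12 genes differed at night, with 14.6 and 22.2 FPKM at ZT 15 for Cre12.g497950 and 3.54 and 4.92 for Cre12.g498000.

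Most genes beside a member that averaged 5 FPKM or more did not share its excess at ZT 12. Of 185 gene models next to a member and not in the set, 55 averaged 5 FPKM or more, and 13 of these had a ratio over 1, at a median of 0.764. Over all 5011 genes 15.8% had a ratio over 1, at a median of 0.646. Neighbors under 5 FPKM are left out of these counts, and some of them had larger ratios. The largest was 3.04 in Cre03.g152200, 46 bases from the member Cre03.g152250, with a mean of 4.63 FPKM at ZT 12. On the other side of that member, Cre03.g152300 had a ratio of 0.621. Sets taken by the same rule at the other time points had between 0 (ZT 3) and 5 (ZT 9, ZT 15 and ZT 18) such pairs of next neighbors, beside 7 at ZT 12.

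The limit of the set is not a break in the data. The last member, Cre02.g121900, with 56.5 and 60.7 FPKM at ZT 12 beside 35.2 and 37.4 at ZT 15, had a ratio of 1.598, and the first gene outside, Cre14.g624550, with 26.2 and 22.1 FPKM at ZT 12 beside 15.0 and 14.6 at ZT 15, had 1.596. Within the set 35 members had a ratio of at least 2 and 8 of at least 3. The same rule gave a 100th ratio of 1.32 at ZT 0, 1.95 at ZT 3, 1.53 at ZT 6, 1.34 at ZT 9, 1.60 at ZT 12, 1.11 at ZT 15, 1.02 at ZT 18 and 1.36 at ZT 21. The number of genes with a ratio of at least 2 was 35 at ZT 12 and 92 at ZT 3, after lights on. The largest single ratio was 7.5 at ZT 12, beside 7.05 at ZT 0, 6.92 at ZT 21 and 4.57 at ZT 3.

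Each replicate series was also used to choose genes that were then read in the other. The 100 genes with the largest ratio in replicate A had a median ratio of 1.83 there and of 1.82 in replicate B, where 100 of them were over 1 and 89 at least 1.5, beside 16.3% and 2.76% of all genes eligible in replicate A. Chosen in replicate B, the 100 genes had a median of 1.83 there and of 1.77 in replicate A, with 99 over 1 and 80 at least 1.5, beside 14.8% and 2.22%. The lists shared 75 genes. Each reading is 1 culture per time point and is given without a test.

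**Figure D5:**
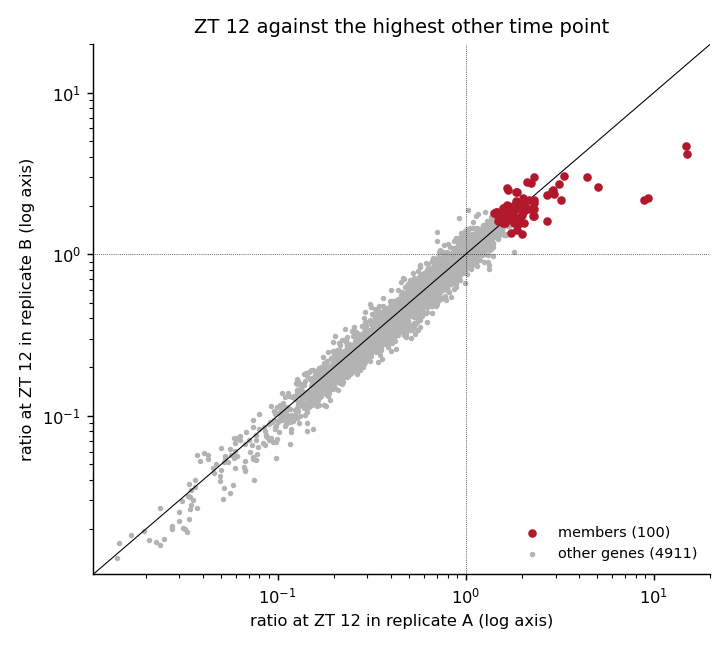
Ratio of the ZT 12 value plus 1 to the highest other value plus 1 in replicate B against replicate A, both on log axes, for the 100 members (red) and the 4911 other genes at or above the minimum of 5 FPKM (gray), with equality as a solid line and a ratio of 1 dotted. The 4 scaffold 18 genes lie far to the right of the line, with ratios of 8.87 to 15.0 in replicate A and 2.15 to 4.69 in replicate B.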

How the data were processed

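The authors mapped stranded reads with TopHat to genome version 4.3, keeping 1 hit per read, and deposited FPKM per gene model computed with Cufflinks; versions are not given in the sources used here. The deposited FPKM are not scaled between libraries. Here each library was multiplied by 1 factor (0.687 to 1.01) to a common 75th percentile over 17114 gene models, which differed from the factor in a deposited table of 50 genes by at most 0.0109%. Fragments were recovered from the Cufflinks limits and were within 0.05 of a whole number in 100% of values under 300 fragments; they cover counting error only. Time points and replicate letters came from the sample labels.

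The members and lists were chosen with earlier results of these data known. Named genes are the 20 largest ratios, further members in a domain family, the genes on either side of the limit, and the 2 members with the largest change in each direction of each comparison; others were named after their values were seen. Log2(FPKM + 1) was fitted with limma 3.58.1 in R 4.3.3, with 8 time points as groups and an intensity trend. In simulated data for ZT 9 against ZT 6 over 12153 genes, 100 were changed by 1 on the log2 scale, 100 by 0.5 and 11953 not. The fit called 98%, 75% and 0.0502% of them. The measured comparison called 34.6% of genes higher and 28.8% lower. With so many called the adjusted threshold lies at a larger p, so the simulated rates do not carry over to it. Domain families came from 200 gene trees of the study. Python 3.11.15 with numpy 2.4.6, pandas 2.3.3 and matplotlib 3.10.9 did the rest. Alternatives were other scalings, pseudocounts, filters and set sizes, a replicate block and leaving out libraries. Promoter motifs and protein sequences were not analysed here.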

Additional observations from a re-analysis of the deposited data

How the results depend on the processing

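Membership depended on the scaling and on the minimum level. On FPKM as deposited 62 of the 100 members were shared with the set, with a minimum mean of 1 FPKM 50 and with a minimum of 10 FPKM 59; under the other alternatives, including replicate A or B left out, ZT 12 or ZT 15 replicates left out (chosen after seeing the data) and sets of 50 or 200 genes, 85 or more of the 100 members, or all of the 50, were shared. FPKM as deposited moved the median log2 change of all genes to 0.27 at ZT 9 against ZT 6, -0.30 at ZT 3 against ZT 0 and 0.20 in dark against light, and gave 2 members lower at ZT 9 against ZT 6, 10 lower at ZT 15 against ZT 9, 11 higher at ZT 3 against ZT 0 and 17 lower in dark against light. Scaling by the median gave 18 lower at ZT 9 against ZT 6 and 2 higher at ZT 18 against ZT 15. Without a filter on low values 7 members were lower at ZT 9 against ZT 6 and 1 was higher at ZT 18 against ZT 15, and 1 was higher there with a minimum mean of 5 FPKM. With libraries left out in turn, the members lower at ZT 9 against ZT 6 numbered 3 to 22 and those higher at ZT 18 against ZT 15 numbered 0 to 2. Of 33 changes given by gene none reversed, and 31 kept their call under every alternative. Cre18.g748450 at ZT 15 against ZT 9 lost it without replicate B at ZT 15 or at ZT 9, and Cre01.g015500 at ZT 18 against ZT 15 without replicate B at ZT 15 or at ZT 18. The 20 leading ratios ran from 1.84 to 4.69 without replicate A and from 1.91 to 15.0 without replicate B.

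A replicate block gave 1 member higher at ZT 18 against ZT 15 and changed no other count by over 1.5 times. Deviations of equal letters correlated at -0.27 to 0.33 over 28 pairs of time points, 13 of them above 0 and 10 above 0.1. A factor shared by some libraries of 1 letter, such as a sequencing lane, is therefore not excluded. With 2 cultures per time point and 5.87e6 fragments in the shallowest library, which is at ZT 12, levels of genes with few fragments by day are imprecise.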

Other observations

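The minimum mean of 5 FPKM kept out weakly expressed genes that stood out at ZT 12, some of them nearly silent at other times. Others were not, such as Cre02.g108150 (ratio 3.52). Its means were 18.6 FPKM at ZT 12, 3.06 at ZT 9, 4.20 at ZT 15 and 4.56 at ZT 18. Among the 7142 genes with a mean of 1 to 5 FPKM, 91 had a ratio at or above that of the last member. Cre04.g214600 on chromosome 4 (506121 to 508522) had the largest, 5.56. It measured 7.80 and 6.16 FPKM at ZT 12 (401 and 131 fragments in replicates A and B), beside 0.680 and 0.192 FPKM at ZT 9 and 0.0693 and 0.119 at ZT 15. In both ZT 15 cultures it was low, where the scaffold 18 genes kept 3.56 FPKM or more.

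Cre01.g027300 (ratio 5.25) missed the minimum narrowly, with a mean of 4.56 FPKM. It measured 27.0 and 20.4 FPKM at ZT 12, beside 1.24 and 1.83 at ZT 9 and 1.75 and 5.66 at ZT 15. Cre07.g326850 (4.12) measured 7.92 and 5.59 FPKM at ZT 12, beside 0.461 and 0.505 at ZT 9 and 0.334 and 1.43 at ZT 15. In both genes the ZT 15 value was higher in replicate B, as it was in 92 of the 100 members. One C2 gene of the lower range, Cre10.g450850, was highest at ZT 12 as well, at 4.77 and 4.16 FPKM beside 2.05 and 1.09 at ZT 9 and 1.74 and 1.89 at ZT 15.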
